A study of Homo sapiens with 6 samples.

Results

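The genes described here are markers and regulators of the osteoblast, the bone-forming cell: RUNX2, SP7, ALPL, SPP1, IBSP, MSX2, DLX5, TMEM119 and TNFRSF11B. They were chosen by name, 9 genes in all, and 7 were matched to a row of the 16376 genes in the deposited table. SP7 and IBSP were not matched, and their expression is not analysed here. Expression was measured by RNA sequencing in HOS, a human cell line of osteosarcoma origin whose genotype is labelled WT. There were 3 libraries after 24 h of Agrimol B, a phloroglucinol derivative of agrimony plants, and 3 control libraries. Control cells are labelled as having had no treatment, whether they were given solvent is not stated, and the sources used here give no dose. All 6 libraries come from 1 cell line, and nothing in the labels says that replicates were separate cultures, so p-values set differences against a spread of libraries that may be technical.

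RUNX2 is the runt-domain transcription factor without which osteoblasts do not form, and SP7 (osterix) acts downstream of it. DLX5 and MSX2 are homeodomain factors of the skeleton that can act against each other on shared target genes. ALPL, tissue-nonspecific alkaline phosphatase, hydrolyses pyrophosphate, an inhibitor of mineral, and marks the early osteoblast. SPP1 (osteopontin) and IBSP (bone sialoprotein) are secreted acidic glycoproteins of bone that bind mineral and integrins. TMEM119 is a membrane protein that promotes osteoblast differentiation, and TNFRSF11B (osteoprotegerin) is the secreted decoy receptor that keeps RANK ligand from driving osteoclast formation.

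Windows of 250 bases upstream of RefSeq start sites (GRCh38.p14) were used for 5 of the 9 genes. They are shown for 3 genes. These are SPP1, the 1 gene that rose, ALPL, a gene that fell, and RUNX2, whose binding motif was searched. TNFRSF11B was left out, and no window was available for SP7, DLX5 or TMEM119. Capitals mark the RUNX core hexamer TGTGGT or its reverse complement ACCACA, and the GC box GGGCGG or its reverse complement CCGCCC, both searched on either strand. The stretches are SPP1 at chr4:87975464-87975713 (plus strand), RUNX2 at chr6:45328080-45328329 (plus strand, the upstream of its start sites) and ALPL at chr1:21509173-21509422 (plus strand, the middle one of 3 start sites).
SPP1: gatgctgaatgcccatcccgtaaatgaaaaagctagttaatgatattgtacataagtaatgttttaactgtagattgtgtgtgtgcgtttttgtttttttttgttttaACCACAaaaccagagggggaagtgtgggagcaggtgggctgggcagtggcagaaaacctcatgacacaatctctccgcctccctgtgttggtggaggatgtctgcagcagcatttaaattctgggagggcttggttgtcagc
RUNX2: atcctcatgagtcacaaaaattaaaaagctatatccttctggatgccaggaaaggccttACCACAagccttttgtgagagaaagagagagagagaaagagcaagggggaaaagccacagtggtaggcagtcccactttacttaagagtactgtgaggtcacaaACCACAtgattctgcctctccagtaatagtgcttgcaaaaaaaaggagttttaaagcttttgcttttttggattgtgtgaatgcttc
ALPL: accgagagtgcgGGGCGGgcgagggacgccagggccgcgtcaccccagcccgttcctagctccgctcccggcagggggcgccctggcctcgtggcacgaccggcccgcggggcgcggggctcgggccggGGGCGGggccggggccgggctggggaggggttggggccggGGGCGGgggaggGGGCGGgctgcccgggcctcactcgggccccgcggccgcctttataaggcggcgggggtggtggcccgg

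The RUNX hexamer was found once in the SPP1 stretch, with its first base 142 bases upstream of the start site, and at 191 and 87 bases upstream in the RUNX2 stretch. It was not found in the 3 ALPL stretches, the 1 MSX2 stretch, the 1 IBSP stretch or the other RUNX2 stretch. Of 35116 RefSeq windows of this length, 11.0% hold it. The GC box was found 4 times in the ALPL stretch shown and occurs in 42.6% of all windows. It was also found in the RUNX2 stretch not shown, 219 bases upstream. It was not found in the other ALPL stretches or in any remaining stretch. The homeodomain core TAATTA, present in 4.35% of all windows, was found in the MSX2 stretch, 197 bases upstream. The AP-1 motif TGANTCA, present in 6.57% of all windows, was found in the RUNX2 stretch, 243 bases upstream. These matches describe letters in a window and were not measured as binding sites.

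Values are FPKM, fragment numbers divided by transcript length and by the mapped total of the library, so that levels of different genes can be compared. Total FPKM lay between 352990 and 359537 per library. Depths relative to control replicate 1, read from genes with very low values, lay between 0.99 and 1.19, and the total number of reads is unknown. Libraries of 1 group were more alike (Pearson r across the tested genes, on the log2 scale, 0.9861 to 0.9884) than libraries of different groups (0.9468 to 0.9504). Genes whose mean over the 6 libraries reached 1 FPKM were tested with limma on log2(FPKM + 1), with p-values adjusted over all 12143 genes by the Benjamini-Hochberg method and a threshold of 0.05. Of the 9 genes, 6 met this minimum. In these whole-culture libraries, fewer cells of a type and less RNA per cell cannot be told apart.

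With Agrimol B, SPP1 rose 2.18-fold, ALPL fell 2.15-fold and TMEM119 fell 11.4-fold, while the transcription factors RUNX2, DLX5 and MSX2 did not pass the test. TNFRSF11B lay under the minimum, at 0.941 ± 0.116 FPKM in control libraries and at 0.528 ± 0.146 FPKM after Agrimol B (SD, n = 3 per group). Thus 3 of 6 tested genes changed, 1 higher and 2 lower, where 52.0% of all tested genes changed, 30.6% higher and 21.4% lower. The share of changed genes in the group was therefore near that of all tested genes. Of the 2 lower genes, TMEM119 met the minimum only through its control libraries, and its treated values lay under 1 FPKM. The excess of higher over lower calls among all tested genes (3713 against 2598) was absent with median-ratio scaling (3089 against 3148) and nearly so with quantile normalization (3101 against 3083). Groups did not overlap for 4 of the 6 tested genes, against 62.2% of all tested genes.

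**Figure D1:**
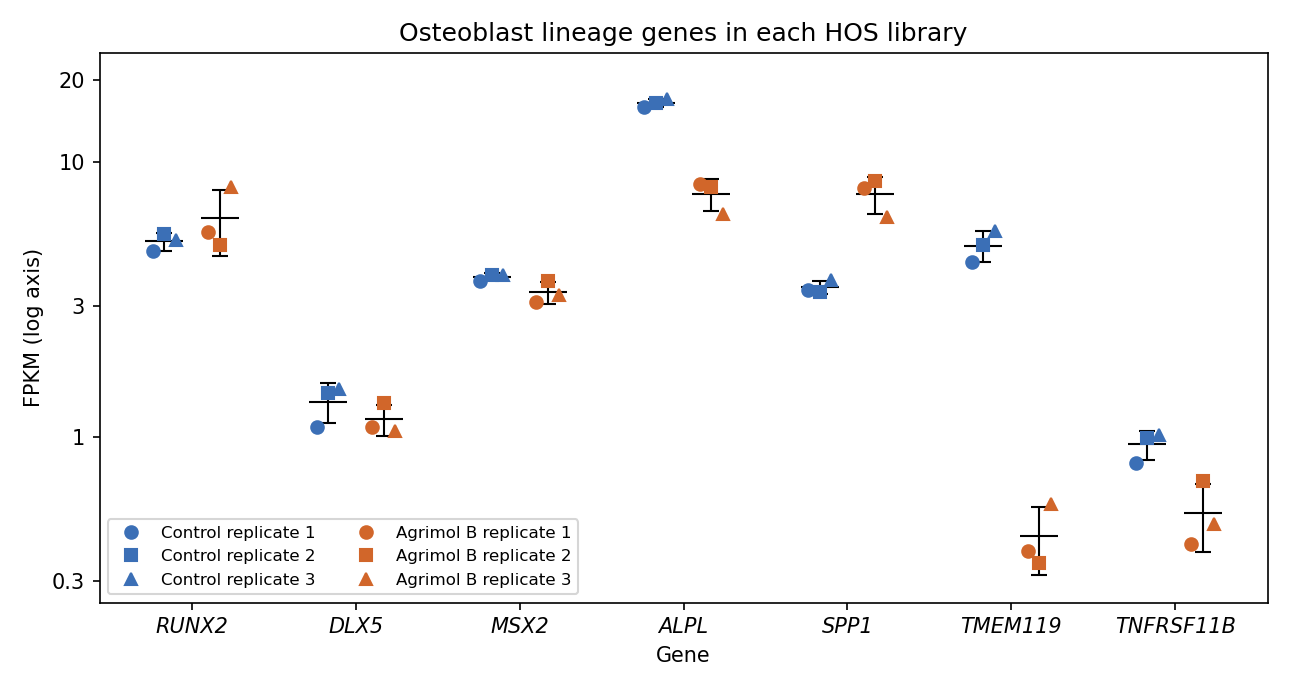
FPKM (log axis) of the 7 osteoblast lineage genes in each library, with control in blue and Agrimol B in orange, marker shape for the replicate number, and a line and bar for the mean and SD of 3 libraries. The ALPL and TMEM119 points of Agrimol B lie below all control points and those of SPP1 lie above them, while RUNX2 and DLX5 overlap.

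RUNX2, the lineage regulator (chromosome 6, 45328157 to 45664349, plus strand), was at 4.76, 5.51 and 5.20 FPKM in control replicates 1 to 3 and at 5.60, 4.99 and 8.16 FPKM in Agrimol B replicates 1 to 3. Agrimol B replicate 3 stood above the other 5 libraries, which overlapped. The difference was 0.21 ± 0.16 (log2 of FPKM + 1, SE; 95% interval -0.18 to 0.61) and was not called (limma adjusted p = 0.310). Without Agrimol B replicate 3 the difference was 0.03, with Agrimol B and control means 1.03-fold apart. RUNX2 overlaps SUPT3H, RUNX2-AS1 and 1 further annotated gene on the opposite strand. The kit was stranded, but the sources used here do not say whether counting used strand, so reads of these genes may not be separated.

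MSX2 (chromosome 5, 174724533 to 174730893, plus strand) was at 3.72, 3.90 and 3.90 FPKM in the control libraries and at 3.11, 3.71 and 3.29 FPKM with Agrimol B. The groups did not overlap, but the highest Agrimol B library lay just under the lowest control library. The difference of -0.15 ± 0.07 (SE; 95% interval -0.32 to 0.02) was not called (limma adjusted p = 0.119), and it was called with quantile normalization (-0.22, adjusted p = 0.0398; 0.0398 to 0.278 over all alternatives). DLX5 (chromosome 7, 97020392 to 97024950, minus strand) was at 1.09, 1.45 and 1.50 FPKM in the control libraries and at 1.09, 1.33 and 1.06 FPKM with Agrimol B. These ranges overlapped, and the difference of -0.12 ± 0.10 (SE; 95% interval -0.35 to 0.12) was not called (limma adjusted p = 0.349). The ratio of MSX2 to DLX5 within a library was 2.90 ± 0.438 in control and 2.92 ± 0.175 with Agrimol B (SD, n = 3 per group), with overlapping ranges.

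Relatives and the partner of these factors were also measured. CBFB, the subunit that stabilizes RUNX2 on DNA, was at 21.1 ± 6.38 FPKM in control and 21.6 ± 0.688 FPKM with Agrimol B and was not called (limma adjusted p = 0.789). Its control replicate 2, at 28.3 FPKM, stood above the other 5 libraries, and without it CBFB was called higher with Agrimol B (log2 difference 0.29, limma adjusted p = 0.035; 0.0350 to 0.9996 over all alternatives). DLX6, the neighbour of DLX5 in the genome, was at 3.95 ± 0.448 and 3.61 ± 0.459 FPKM, and MSX1, the paralog of MSX2, at 18.3 ± 0.874 and 18.5 ± 0.663 FPKM. Neither was called (limma adjusted p = 0.451 and 0.812). DLX3 lay under the minimum, at 0.621 ± 0.0647 FPKM in control and 0.915 ± 0.106 FPKM with Agrimol B.

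ALPL (chromosome 1, 21509372 to 21578412, plus strand) was the most abundant of the 7 genes in every control library, at 16.0, 16.4 and 17.0 FPKM. It was at 8.37, 8.15 and 6.47 FPKM with Agrimol B, so that every treated library lay below every control library, with replicate 3 the lowest. The difference was -1.02 ± 0.10 (SE; 95% interval -1.25 to -0.78; limma adjusted p = 0.000375). In size it was 493rd among the 12143 tested genes. Of the other alkaline phosphatases, the placental ALPP fell 6.44-fold, from 24.2 ± 0.876 to 3.76 ± 0.336 FPKM (limma adjusted p = 1.18e-05), and the germ cell form ALPG lay under the minimum, at 0.458 ± 0.0594 and 0.0568 ± 0.0392 FPKM. ALPP and ALPG are near-identical in sequence, so that their reads may be split between them. The ratio of ALPP to ALPL was 1.55, 1.51 and 1.37 in the control libraries and 0.490, 0.460 and 0.530 in the Agrimol B libraries. The placental form was thus the more abundant of the pair in control libraries and the less abundant with Agrimol B.

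SPP1 (chromosome 4, 87975650 to 87983426, plus strand), the 1 gene of the group that rose, was at 3.43, 3.39 and 3.73 FPKM in control and 8.07, 8.59 and 6.35 FPKM with Agrimol B. The groups did not overlap, and replicate 3 was the lowest of the treated libraries. The difference was 0.93 ± 0.11 (SE; 95% interval 0.67 to 1.20; limma adjusted p = 0.000882), the 376th highest of all tested genes. Set against ALPL within each library, which removes any scaling common to both, SPP1 was at 0.214, 0.207 and 0.220 of the ALPL level in control and at 0.965, 1.05 and 0.980 of it with Agrimol B. The pair of bone markers thus went from unequal to near-equal levels. Agrimol B replicate 3, which was low for both, had a ratio between those of the other treated libraries.

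The tested receptors of osteopontin and bone sialoprotein were not called. Of 8 listed receptors, the integrin chains ITGAV, ITGB1, ITGB3, ITGB5, ITGA4 and ITGA5 and the hyaluronan receptor CD44 were tested. By limma 0 of 7 were called, where 52.0% of all tested genes were. Under an unadjusted p of 0.05 it was also 0 of 7, against 7129 of all 12143 tested genes. The median log2 difference was 0.04, against 0.07 for all tested genes, and whether the list differs from other genes was not tested. The levels ran from 5.95 ± 0.605 FPKM for ITGB3 to 134 ± 22.6 FPKM for ITGB1 in control libraries, and these members were named after their values were seen.

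TMEM119 (chromosome 12, 108589846 to 108598320, minus strand) was at 4.33, 5.01 and 5.61 FPKM in control and 0.384, 0.350 and 0.573 FPKM with Agrimol B. The highest treated library was far under the lowest control library, and the gene met the minimum only through its control libraries. The difference of -2.06 ± 0.11 (SE; 95% interval -2.31 to -1.80; limma adjusted p = 5.19e-05) was the 32nd in size among the 12143 tested genes. On the log2(FPKM + 0.1) scale it was -3.26, since the added constant of 1 exceeds the treated values. TMEM119 stood beside RUNX2 in control libraries, at 0.910, 0.909 and 1.08 of its level, and at 0.0686, 0.0701 and 0.0702 of it with Agrimol B. Agrimol B replicate 3 was the highest treated library for both genes.

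**Figure D2:**
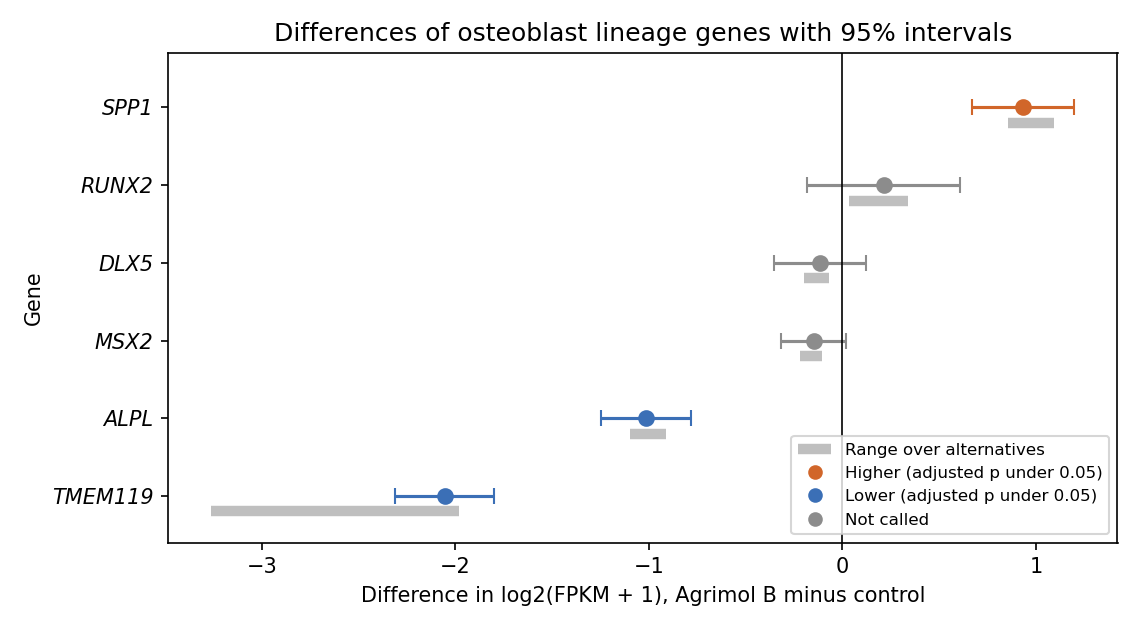
Differences in log2(FPKM + 1), Agrimol B minus control, of the 6 tested genes with 95% intervals from limma (n = 3 libraries per group), and in grey the range over the alternative settings. SPP1 lies at 0.93, ALPL at -1.02 and TMEM119 at -2.06, and the intervals of RUNX2, DLX5 and MSX2 include 0.

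TNFRSF11B, the decoy receptor for RANK ligand, was at 0.808, 0.992 and 1.02 FPKM in control and 0.410, 0.691 and 0.482 FPKM with Agrimol B. Every treated library lay under every control library. The exact two-sided permutation test gave p = 0.10, the smallest that 3 libraries against 3 allow. When all 16376 genes were tested without a minimum, its difference was -0.35 ± 0.08 (SE; limma adjusted p = 0.0180). Values this low rest on few reads, whose number is unknown. RANK ligand itself, TNFSF11, was not matched to a row and is not analysed here.

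Other signals by which osteoblasts and tumour cells support osteoclasts were read from a list of 8 genes. Of these, 4 were tested, and 3 rose and 0 fell, where 30.6% of all tested genes were higher. The cytokine IL6 rose 6.90-fold from 0.365 ± 0.133 to 2.52 ± 0.326 FPKM, IL11 2.60-fold from 2.75 ± 0.166 to 7.15 ± 0.726 FPKM, and PTHLH, parathyroid hormone-related protein, 1.64-fold from 2.05 ± 0.478 to 3.36 ± 0.218 FPKM (limma adjusted p = 0.000205, 0.000155 and 0.0125). IL6 met the minimum only through its treated libraries. The other tested gene, CSF1, was at 6.68 ± 0.167 FPKM in control and 5.98 ± 0.511 FPKM with Agrimol B and was not called (limma adjusted p = 0.132). LIF, TNFRSF11A and TNFSF10 lay under the minimum. Whether the list differs from other genes was not tested.

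The order of the 7 genes differed between the groups. In control libraries ALPL stood first at 16.4 ± 0.517 FPKM. RUNX2 (5.15 ± 0.377 FPKM) and TMEM119 (4.98 ± 0.642 FPKM) followed with overlapping ranges, then MSX2 (3.84 ± 0.105 FPKM) and SPP1 (3.51 ± 0.189 FPKM), which also overlapped, then DLX5 (1.35 ± 0.222 FPKM) and TNFRSF11B. With Agrimol B, SPP1 (7.67 ± 1.17 FPKM), ALPL (7.66 ± 1.04 FPKM) and RUNX2 (6.25 ± 1.68 FPKM) overlapped at the top, MSX2 (3.37 ± 0.308 FPKM) and DLX5 (1.16 ± 0.151 FPKM) followed, and TNFRSF11B (0.528 ± 0.146 FPKM) and TMEM119 (0.435 ± 0.120 FPKM) overlapped at the bottom. RUNX2 was the most abundant of the group in Agrimol B replicate 3, where ALPL and SPP1 led in replicates 1 and 2, respectively.

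**Figure D3:**
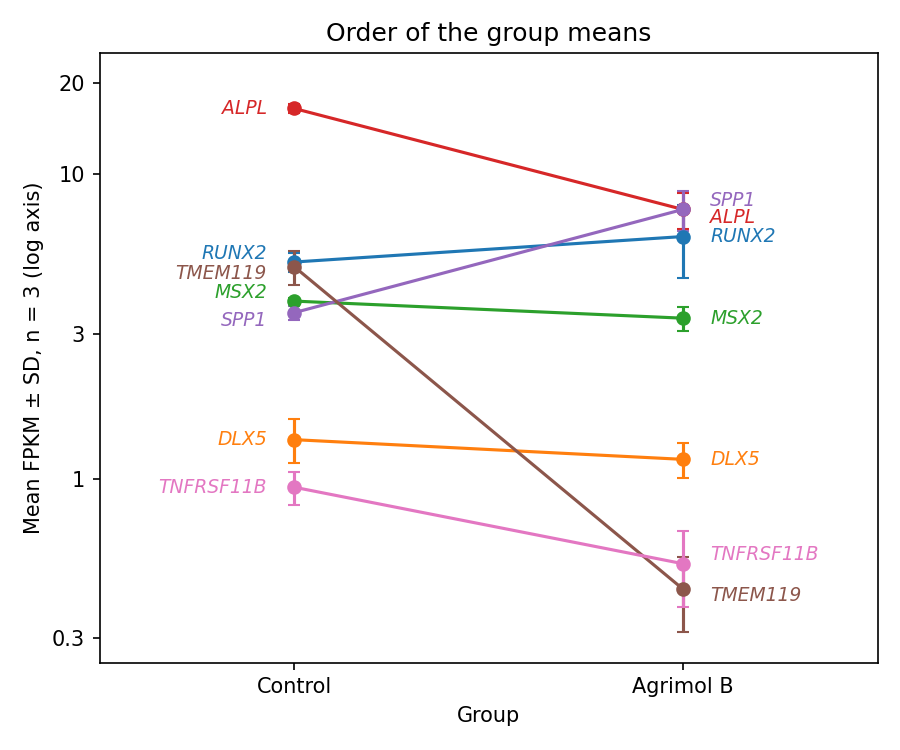
Mean FPKM ± SD (n = 3 libraries, log axis) of each osteoblast lineage gene in control and Agrimol B libraries, joined by lines. SPP1 goes from 3.51 to 7.67 FPKM and meets ALPL, which goes from 16.4 to 7.66 FPKM, and TMEM119 goes from the level of RUNX2 to the lowest place.

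Other bone genes were described from lists of known function, by counts and medians. Among all tested genes 30.6% were higher and 21.4% lower, with a median log2 difference of 0.07. Whether any of these lists differs from other genes was not tested. Of 12 further factors that promote osteoblast differentiation 11 were tested, and 3 rose, 3 fell and 5 were not called (median log2 difference 0.02). Of those that rose, MAF had a control mean of 0.907 FPKM and met the minimum only through its treated libraries. ATF4, a factor that drives late osteoblast genes and amino acid uptake, rose 1.46-fold from 220.2 ± 5.88 to 322 ± 17.8 FPKM (limma adjusted p = 0.000325). The coactivator WWTR1 (TAZ), which binds RUNX2, fell 1.61-fold from 17.9 ± 0.371 to 11.2 ± 0.0913 FPKM, and FOXO1 fell 1.54-fold (limma adjusted p = 0.000108 and 0.00183). Of 9 repressors of RUNX2 or of osteoblast differentiation, all tested, 2 rose and 2 fell (median 0.06). HEY1, a Notch target, rose 1.96-fold from 2.19 ± 0.545 to 4.30 ± 0.172 FPKM. TWIST1, which binds RUNX2 and holds it inactive, fell 1.15-fold from 19.9 ± 0.400 to 17.2 ± 0.351 FPKM (limma adjusted p = 0.00349 and 0.00942). ZNF521 was at 2.47 ± 0.136 and 1.85 ± 0.228 FPKM, with a call (limma adjusted p = 0.0244) that was lost when any 1 of 4 libraries was left out, control replicates 1 and 2 and Agrimol B replicates 1 and 3 (0.0145 to 0.0741 over all alternatives).

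Several genes of the bone matrix fell. Of 13 further genes of bone matrix and mineralization 8 were tested, and 4 fell and 1 rose (median -0.51), where 52.0% of all tested genes were called and 21.4% were lower. Whether the list differs from other genes was not tested. The chains of type I collagen fell unequally, COL1A1 by 1.43-fold from 419 ± 13.9 to 293 ± 11.5 FPKM and COL1A2 by 2.73-fold from 70.6 ± 3.13 to 25.9 ± 2.04 FPKM (limma adjusted p = 0.000256 and 4.54e-05). SPARC (osteonectin), a collagen-binding glycoprotein, fell 1.82-fold from 292 ± 35.3 to 160.1 ± 20.3 FPKM (limma adjusted p = 0.00206). BGLAP (osteocalcin), the marker of the mature osteoblast, lay under the minimum at 0.146 ± 0.0812 FPKM in control and 0.0850 ± 0.0582 FPKM with Agrimol B, with overlapping ranges, and was named after its values were seen. Of 6 osteocyte markers 1 was tested. This was PDPN, which fell 2.52-fold from 13.6 ± 0.501 to 5.40 ± 2.60 FPKM (limma adjusted p = 0.0170), a call lost without control replicate 3 (adjusted p = 0.0501; 0.00166 to 0.0501 over all alternatives).

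Genes of signalling pathways upstream of RUNX2, MSX2 and DLX5, targets of these pathways included, moved in both directions. Beside the counts below, 30.6% of all tested genes were higher and 21.4% lower, with a median of 0.07. Whether these lists differ from other genes was not tested. Of 21 genes of the BMP pathway, which induces these factors, 18 were tested, and 6 rose and 6 fell (median -0.13). Of those that rose, BMPR1B had a control mean of 0.881 FPKM and met the minimum only through its treated libraries. The ligand BMP2 rose 2.87-fold from 1.41 ± 0.0829 to 4.05 ± 0.264 FPKM (limma adjusted p = 9.11e-05). BMP4 fell 1.88-fold from 7.19 ± 2.37 to 3.82 ± 0.753 FPKM (limma adjusted p = 0.0318). BMP7, the most abundant of these ligands, rose 1.19-fold from 12.8 ± 0.421 to 15.2 ± 0.715 FPKM (limma adjusted p = 0.0124). BMP6 lay under the minimum, at 0.216 ± 0.0387 and 0.659 ± 0.0479 FPKM. The inhibitory SMAD6, itself a BMP target, fell 3.78-fold and the BMP target ID1 fell 2.40-fold from 13.9 ± 0.611 to 5.78 ± 0.790 FPKM (limma adjusted p = 7.42e-05 and 0.000251). Of 10 genes of Wnt signalling in bone, all tested, 6 fell and 2 rose (median -0.42). Of those that fell, AXIN2 had a treated mean of 0.781 FPKM and met the minimum only through its control libraries. The Wnt inhibitor SFRP1 fell 1.78-fold and the ligand WNT5A 1.73-fold (limma adjusted p = 7.90e-05 and 0.00182). LGR4, a receptor that strengthens Wnt signals, was called at an adjusted p of 0.0497 (limma), and that call was lost under 8 of 13 alternatives (0.000753 to 0.134), among them the omission of any single library other than control replicate 2. Of 8 hormone and growth factor receptors 6 were tested, and 1 rose and 1 fell (median -0.14). The vitamin D receptor VDR, whose ligand induces SPP1 in osteoblasts, rose 1.99-fold from 2.59 ± 0.245 to 5.16 ± 0.686 FPKM, and FGFR2 fell 1.84-fold (limma adjusted p = 0.00141 and 0.0126).

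**Figure D4:**
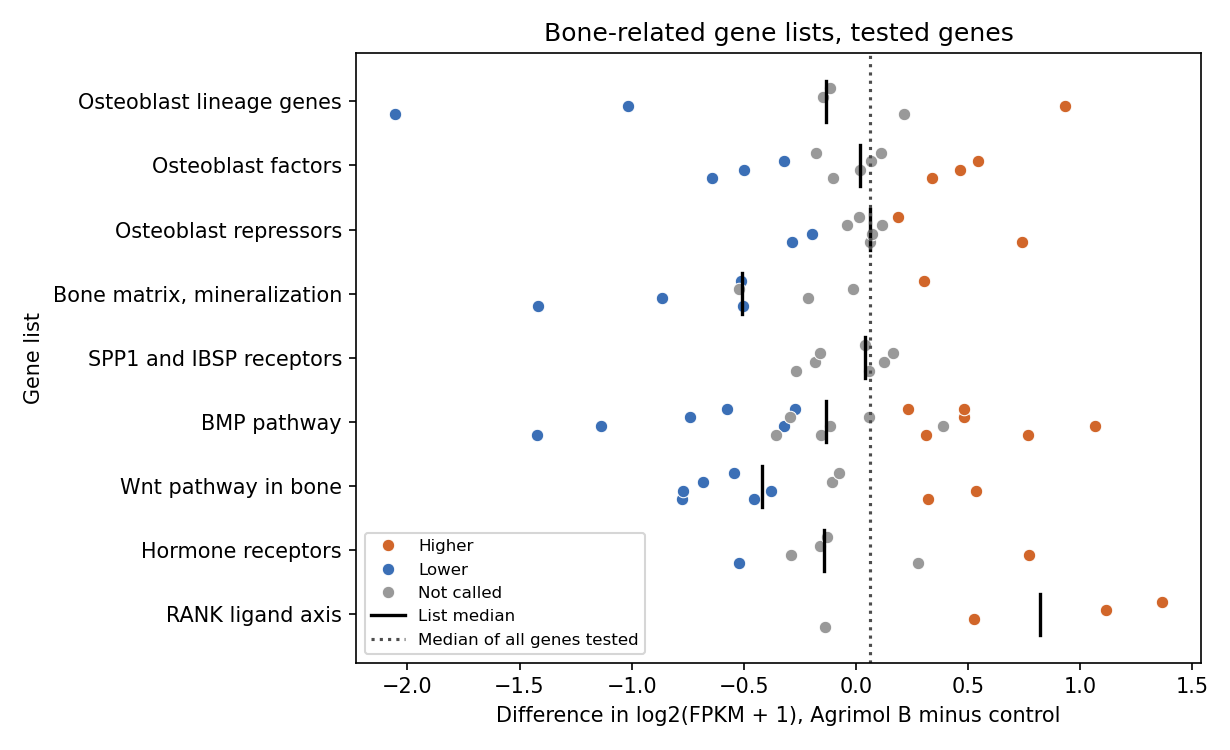
Differences in log2(FPKM + 1), Agrimol B minus control, of the tested genes in 9 bone-related lists, coloured by limma call, with a bar for the list median and a dotted line for the median of all 12143 tested genes. The osteopontin receptors gather near 0 with 0 calls, where 52.0% of all tested genes were called. The bone matrix list has its median at -0.51.

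Of the osteoblast lineage genes, RUNX2, ALPL, SPP1, MSX2 and DLX5 were above 1 FPKM in every library. So were the bone matrix genes COL1A1 and SPARC. TMEM119 was above 1 FPKM in the control libraries alone, TNFRSF11B lay near or under it, BGLAP, PHOSPHO1 and OMD had group means between 0 and 0.503 FPKM, and SP7 and IBSP were not matched. Markers of other cell types were read beside these values. Over all tested genes 30.6% were higher and 21.4% lower, and whether any marker list differs from this was not tested. The blood marker PTPRC was listed at 0 in every control library, and the endothelial markers PECAM1 and CDH5 were at 0.0313 ± 0.0082 and 0.264 ± 0.181 FPKM in control libraries. Other markers of these lists were well above 0. The endothelial marker TEK, the 1 of 5 tested, fell 3.85-fold from 3.10 ± 0.164 to 0.805 ± 0.189 FPKM. TEK met the minimum only through its control libraries. Of 6 blood markers 2 were tested, and CD68 rose 2.13-fold from 4.22 ± 0.325 to 9.002 ± 1.41 FPKM while CD14 fell 2.45-fold from 1.44 ± 0.329 to 0.588 ± 0.190 FPKM. CD14, too, met the minimum only through its control libraries. Of 5 skeletal muscle markers 1 was tested and not called. The summed level of 6 epithelial markers was 537 to 598 FPKM in the control libraries and 310.4 to 339 FPKM with Agrimol B, and of 5 tested members KRT8 fell 2.57-fold, KRT18 fell 1.30-fold and CLDN3 rose 2.24-fold. The call of KRT18 (limma adjusted p = 0.0356) was lost with quantile normalization and on leaving out any single library other than Agrimol B replicate 1 (0.000610 to 0.101 over all alternatives). The summed level of 6 smooth muscle and myofibroblast markers was 565 to 679.7 FPKM in the control libraries and 197 to 251 FPKM with Agrimol B, and 4 of 5 tested members fell, among them ACTA2 by 20.9-fold, CNN1 by 3.44-fold and CALD1 by 2.82-fold. Of 8 adipocyte markers 3 were tested and 2 rose, LPL by 1.81-fold and CEBPA by 1.66-fold. PPARG, at 11.9 ± 2.46 FPKM in control and 9.91 ± 1.12 FPKM with Agrimol B, was not called. FABP4 lay under the minimum, at 0.554 ± 0.175 and 0.316 ± 0.0451 FPKM, and its groups did not overlap. ADIPOQ, LEP and CIDEC were not matched to a row. Of 8 chondrocyte markers 4 were tested, with MATN3 higher by 1.54-fold and COL2A1 lower by 1.33-fold. The call of COL2A1 (limma adjusted p = 0.0406) was lost on leaving out any single library other than control replicate 2 (0.0243 to 0.106 over all alternatives). Of 6 osteoclast markers 1 was tested, OSCAR, which rose from 0.0971 ± 0.0544 to 1.98 ± 0.523 FPKM (limma adjusted p = 0.000460) and met the minimum only through its treated libraries. The osteoclast markers ACP5 and CTSK lay under the minimum with overlapping ranges, and CALCR, DCSTAMP and OCSTAMP were not matched to a row. The part of these shifts in the values of ALPL, SPP1 and TMEM119 was not tested.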

How the data were processed

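The authors deposited 1 table of FPKM values, with 1 column per library. Per the submitters' processing notes, FastQC, cutadapt, Trimmomatic, HISAT and hg38 were used, without version or role. How FPKM was computed, with which annotation, strand setting and gene filter, the sources used here do not say. Control columns are named NC where the descriptions say CN, and were matched by these letters and their number.

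The 12143 genes whose mean reached 1 FPKM were tested on log2(FPKM + 1) with limma 3.58.1 in R 4.3.3 (group term, variance trend, two-sided). Folds are ratios of group means of FPKM, and log2 differences, taken after adding 1, understate changes of low genes. Relative depth came from ratios of genes under 0.05 FPKM in both of 2 libraries. In simulated libraries of 12143 genes, 93% of genes changed 2-fold and 79% of those changed 1.5-fold were recovered, and 4.97% of calls were false. Folds were applied to FPKM + 1, in genes with a mean log2(FPKM + 1) above 2. Recovery at the lower means of DLX5 and TMEM119 was therefore not simulated. Changed genes were also far fewer than in the data, with 181 calls against 6311.

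The 9 genes and the 18 other lists (148 genes, 130 of them in the table) were chosen with earlier results of these data known. From each list up to 3 called genes with the largest differences and no overlap between groups were named. CBFB, TNFSF11 and the DLX, MSX and alkaline phosphatase relatives were named in any case. Further genes were named after their values were seen. Coordinates are from GENCODE 29 (GRCh38) and upstream sequences from RefSeq (GRCh38.p14). Python 3.11.15, pandas 2.3.3, numpy 2.4.6 and matplotlib 3.10.9 were used. Alternatives changed the pseudocount, the filter, the scaling, the variance trend, the replicate block or the libraries used.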

Additional observations from a re-analysis of the deposited data

How the results depend on the processing

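The calls of SPP1, ALPL and TMEM119 held under every alternative that tested them, 13 for SPP1 and ALPL and 12 for TMEM119. Their log2 differences ran from 0.86 to 1.09, from -1.10 to -0.91 and from -3.26 to -1.98, respectively. With a minimum of 5 FPKM the number of osteoblast lineage genes lower with Agrimol B was 1, since TMEM119 was then not tested. It was 3 without a minimum, where TNFRSF11B was tested, and 3 with quantile normalization, where MSX2 was called (log2 difference -0.22). The number that rose was 1 throughout. Of all tested genes, 1947 of 8882 were lower with a minimum of 5 FPKM and 2923 of 16376 without a minimum. With quantile normalization 3083 of 12143 were lower, against 2598 of 12143 with the main settings. Those called higher ran from 2788 with a minimum of 5 FPKM to 3959 without a minimum. RUNX2 and DLX5 were called under none of their alternatives (adjusted p 0.133 to 0.775 and 0.120 to 0.628). Of the 36 called genes that the naming rule took from other lists, 31 kept their call under every alternative that tested them. The alternatives were applied to those genes after seeing the data, and are not given for called genes named after their values were seen. The sign of MSX1, which was not called, turned with median-ratio scaling (-0.047) and quantile normalization (-0.059). On leaving out 1 library at a time the log2 difference of MSX1 ran from -0.020 to 0.044 and that of CBFB from -0.10 to 0.29. The cause was not tested.

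Control and Agrimol B libraries share the numbers 1 to 3, but deviations from the group means correlated by only 0.037, -0.006 and -0.015 in same-numbered pairs, so the numbers were not taken as pairs. With a replicate block 5776 genes were called, against 6311 without it, and the calls of the osteoblast lineage genes were 2 lower and 1 higher as before, with a TMEM119 adjusted p of 0.00138. The total number of reads is unknown, which limits what can be said of TNFRSF11B and other genes near or under 1 FPKM.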
